A study of Mus musculus with 9 samples.

Results

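The CCN family of secreted matricellular proteins was examined in hepatic stellate cells, the retinoid-storing pericytes of the liver, after repeated toxic injury. The 5 members are Ccn1, Ccn2, Ccn3, Ccn4 and Ccn5, taken by gene name from the 35024 rows of the deposited expression table, and all 5 were found. Bulk RNA sequencing covered 9 libraries of C57BL/6J background mice, all with floxed Yap1 and all given 6 injections of carbon tetrachloride (CCl4), 3 days apart. Cells were sorted on retinoid autofluorescence 2 days after the last injection. Of these, 5 bear a control label, without Cre, with the codes LYT004, LYT005, LYT014, LYT015 and LYT017. The YAP-deleted label belongs to LYT006, LYT008, LYT013 and LYT016, 4 libraries labelled as carrying LratCre. This is a recombinase under the Lrat promoter of vitamin A storing cells. Cre status is known here from the labels only. No control is labelled as carrying the Cre, so Cre and loss of Yap1 cannot be told apart. The study asked what deletion of Yap1 does to stellate cells in the injured liver.

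CCN proteins are cysteine-rich modular proteins of the extracellular matrix that bind integrins, heparan sulfate proteoglycans and LRP receptors and modify growth factor signals. Ccn1 (Cyr61) and Ccn2 (connective tissue growth factor) are immediate early genes, and both are classic targets of YAP and TAZ bound to TEAD factors. In liver fibrosis Ccn2 is known as a profibrotic product induced by TGF-beta, while Ccn1 has been tied to the senescence of activated myofibroblasts. Ccn3 (Nov) is often described as a counterpart of Ccn2, Ccn4 (Wisp1) as a Wnt-induced member, and Ccn5 (Wisp2) as the member without the C-terminal cysteine knot domain.

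Before the members, the targeted gene was checked. Yap1 stood at 2902, 2915, 3653 and 3551 normalised counts, which are recovered counts scaled by library size factor, in LYT004, LYT005, LYT015 and LYT017, all controls. YAP-deleted LYT006, LYT008 and LYT016 had 642, 648 and 645. LYT014, labelled control, had 618, and LYT013, labelled YAP-deleted, had 2530, so both went against their labels. The differences between groups are therefore given for all 9 libraries as labelled and for the 7 libraries without these 2. Recovered totals ran from 14052502 to 31816055 counts per library. All 12 stellate markers fixed for this work were above 0 in every library, with a summed level of 387315 to 649012 normalised counts. The 12 macrophage markers summed to 724 to 2604, the 9 endothelial ones to 1130 to 4374 and the 8 hepatocyte ones to 344 to 1418, with none at 0. The 9 portal fibroblast markers summed to more, 4211 to 12320, with Pi16 at 0 in LYT004 and Clec3b at 0 in LYT017. In bulk RNA, fewer cells of a type and less RNA per cell cannot be told apart.

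Of the 5 members, only Ccn1 matched the RefSeq promoter table (GRCm38.p6), so its promoter alone is shown. Ccn1 is also the textbook readout of TEAD-bound YAP and had the smallest p of the 5 in both fits. The stretch is the 250 bases before the annotated start, chr3:145649986-145650235, minus strand. Capitals mark the letters of a TEAD motif and of a TATA box.

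Ccn1: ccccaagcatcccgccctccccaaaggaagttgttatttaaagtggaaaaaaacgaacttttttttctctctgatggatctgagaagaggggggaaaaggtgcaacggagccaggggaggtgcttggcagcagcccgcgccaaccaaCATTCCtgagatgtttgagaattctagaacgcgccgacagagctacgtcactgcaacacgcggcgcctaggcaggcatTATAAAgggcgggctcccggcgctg

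Searched on both strands, the TEAD motif CATTCC lay at −103 to −98 and TATAAA at −25 to −20, counted from −1 as the base before the start, and the 2 did not overlap. The AP-1 motif TGANTCA, the SMAD motif GTCTAGAC and the CArG box had no match in this window. Among 32851 promoter stretches of the same length, 12.6% held CATTCC, 12.4% TATAAA, 6.7% the AP-1 motif, 0.2% the SMAD motif and 1.5% a CArG box. A match describes letters and is not a measured binding site.

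On GRCm38 (GENCODE M21) the genes lie at chr3:145646976-145649981 for Ccn1, chr10:24595442-24598683 for Ccn2, chr15:54745702-54754039 for Ccn3, chr15:66891320-66923201 for Ccn4 and chr2:163820861-163833146 for Ccn5. Ccn1 is on the minus strand and the others on the plus strand.

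Ccn1 and Ccn2 were abundant, Ccn4 was moderate and Ccn3 and Ccn5 were near the detection limit. Per kilobase of coding transcript, the mean over 9 libraries was 10939 ± 3639 normalised counts for Ccn1 (SD, n = 9) and 4317 ± 1164 for Ccn2. Ccn4 followed at 179 ± 37.1, and Ccn5 and Ccn3 at 5.12 ± 5.05 and 3.56 ± 1.72. Ccn1 was thus 2.53 times as high as Ccn2 and 61.1 times as high as Ccn4 per length. The order of Ccn5 and Ccn3 lay within their spread. By normalised count without length, Ccn1 ranked 93rd and Ccn2 222nd of 17203 tested genes, and Ccn4 5745th. Ccn3 and Ccn5 ranked 12769th and 12933rd. Ccn6, the family gene outside the 5 members, had 0 to 5 recovered counts per library and is not described further.

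Genes entered the test when at least 4 of the 9 libraries lay above the lowest value of the table, and all 5 members did so in 9 of 9. None of the 5 members passed. With all 9 libraries, limma with Benjamini-Hochberg adjustment called 0 of 17203 genes (0%) at an adjusted p of 0.05. In the 7 libraries it called 12 (0.0698%), none of them a CCN gene of the 5. Whether the libraries stem from different mice is not stated in the labels. The p-values then measure only library-to-library spread, which may be technical.

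**Figure D1:**
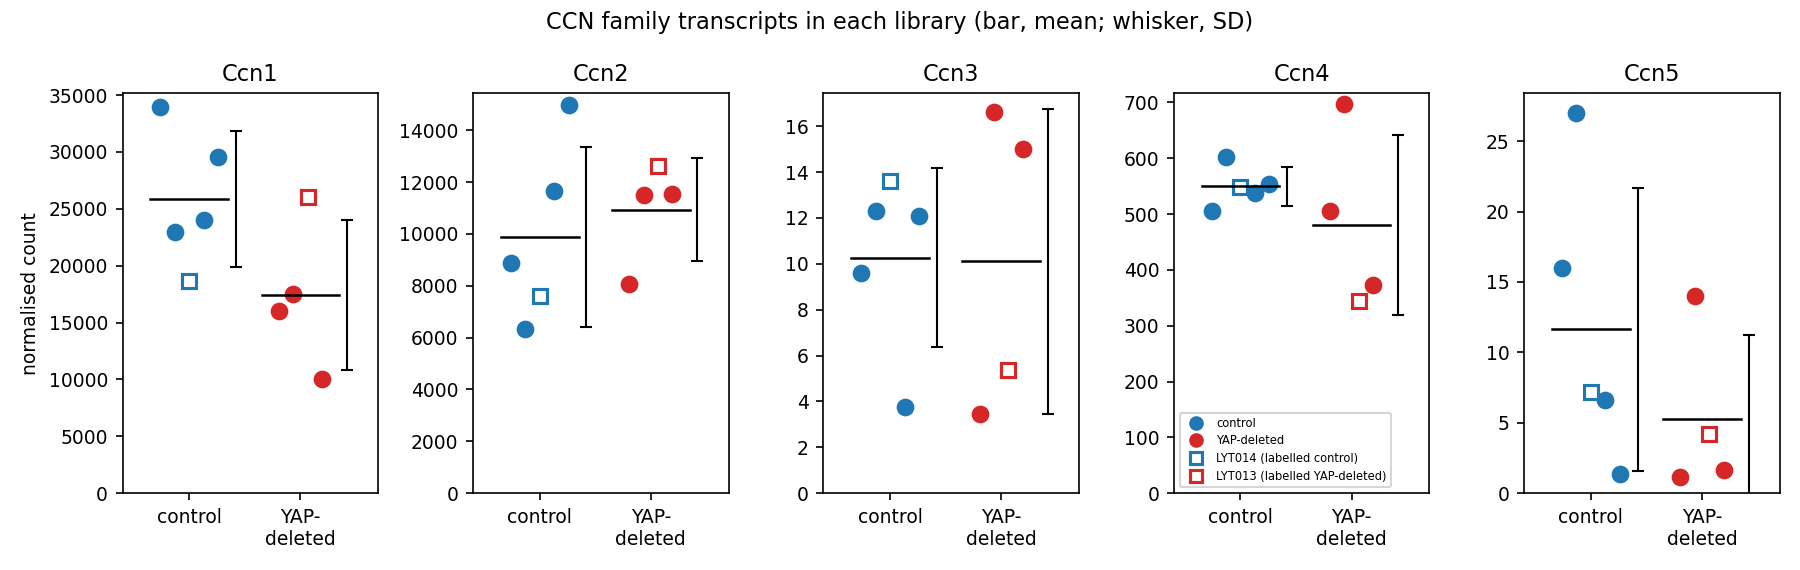
Normalised counts (y axes, linear, each from 0) of the 5 CCN genes by labelled group. Points are libraries, open squares mark LYT013 and LYT014, bars are means and whiskers SD, cut at 0 for Ccn5. Ccn1 of LYT014 (18690) is the lowest control and Ccn1 of LYT013 (26045) the highest YAP-deleted library.

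Ccn1, a ligand of several integrins, was lower in most YAP-deleted libraries. Its normalised count was 33946, 22929, 24020 and 29599 in the controls LYT004, LYT005, LYT015 and LYT017. YAP-deleted LYT006, LYT008 and LYT016 had 16002, 17512 and 10037. These 4 and 3 libraries did not overlap, and LYT016 stood lowest. LYT014, labelled control, had 18690 and lay between the 2 sets, while LYT013, labelled YAP-deleted, had 26045 and lay inside the range of those 4 controls. Read by label alone, Ccn1 therefore overlapped, with 17 of 20 control and YAP-deleted pairs lower in the YAP-deleted library.

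Over the 9 libraries Ccn1 averaged 25837 ± 5974 (SD, n = 5) and 17399 ± 6606 (SD, n = 4). On the log2-like scale of the deposited values the difference was −0.62 ± 0.27 (SE, limma adjusted p = 0.649), with a 95% interval of −1.2 to −0.03. The exact two-sided permutation test over 126 regroupings gave p = 0.0714. The unadjusted limma p of 0.0406 falls in a class that held 3.69% of all genes in the lower direction. Groups without overlap in that direction, which no member had, made up 1.15% of genes.

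In the 7 libraries Ccn1 averaged 27623 ± 5128 (SD, n = 4) and 14517 ± 3953 (SD, n = 3), a difference of −0.95 ± 0.23 log2 units. That corresponds to 1.93-fold lower, with a 95% interval of 1.35 to 2.75, and a limma adjusted p = 0.520. The exact two-sided permutation p = 0.0286 is the smallest that 35 regroupings can give. Of all 17203 genes, 3.48% had the same lack of overlap in the lower direction, and 3.03% had a lower value at an unadjusted p under 0.05, as Ccn1 did (0.00264). In the 9 libraries, leaving out LYT016 took the difference from −0.62 to −0.38 ± 0.24. In the 7, leaving it out gave −0.70 ± 0.20.

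Counting error was a small part of this spread. Each library held 12030 to 43528 recovered Ccn1 counts, whose counting alone would give a coefficient of variation of 0.663%, against 33.3% observed over 9 libraries. Library codes fall into 2 ranges. The Ccn1 difference was −0.73 ± 0.22 among codes 4 to 8 (2 against 2 libraries) and −0.55 ± 0.42 among codes 13 to 17, which hold LYT013 and LYT014.

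All marker lists of other cells overlapped between the groups of the 7 libraries in summed level. In mean deposited value only the vascular smooth muscle list did not overlap. Macrophage markers summed to 724 to 1948 normalised counts in controls and 1061 to 2604 in YAP-deleted libraries, with the highest sum in LYT016, the library with least Ccn1. Endothelial markers summed to 1130 to 3312 and 1889 to 2359, and hepatocyte markers to 478 to 1066 and 573 to 987. The mean deposited value of the vascular smooth muscle markers did not overlap, at 10.42 to 10.54 in controls and 9.92 to 10.25 in YAP-deleted libraries, although their summed level did (92261 to 125076 and 105106 to 142152). Of 8 tested smooth muscle markers 6 had a negative difference and 2 a positive one (median −0.30). The lowest was Notch3, a receptor of mural cells named here after its values were seen, at −1.31 ± 0.24 (limma adjusted p = 0.316), and −0.82 ± 0.34 in the 9 libraries. Pln was at 0 in all of these libraries but LYT016, and Cnn1 in LYT006. In controls and YAP-deleted libraries of the 7, Cnn1 averaged 4.38 and 3.11 normalised counts, Actg2 26.0 and 8.85, and Myh11 3129 and 2357. Notch3, Cnn1, Actg2 and Myh11 are all among the markers with a negative difference, so they do not stand for the whole list. Whether the transcripts of this list came from smooth muscle cells or from the stellate cells themselves was not tested. All 7 activated myofibroblast markers were negative (median −0.63, and −0.53 in the 9), with none called, and their summed level overlapped at 233701 to 737899 and 186830 to 507275. The part of these cells and states in the Ccn1 difference was not tested.

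**Figure D2:**
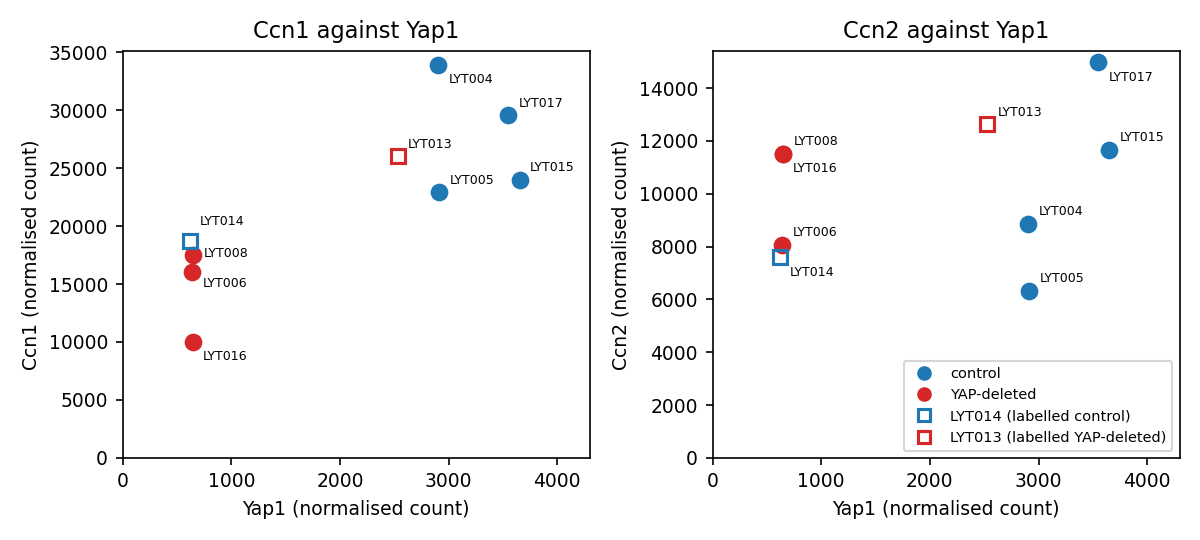
Ccn1 (left) and Ccn2 (right) against Yap1, all in normalised counts per library on linear axes, with the libraries named. LYT014 lies at 618 Yap1 and 18690 Ccn1 counts and LYT013 at 2530 and 26045. In the right panel LYT008 and LYT016 coincide, and the labelled groups overlap.

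Ccn2, the profibrotic member, showed no such separation. The controls LYT004, LYT005, LYT015 and LYT017 stood at 8865, 6328, 11669 and 14981 normalised counts, and YAP-deleted LYT006, LYT008 and LYT016 had 8070, 11514 and 11522. LYT014 had 7594 and LYT013 had 12632. Both the lowest and the highest Ccn2 level belonged to control libraries whose Yap1 followed the label. Controls with codes 4 and 5 lay below those with codes 15 and 17, and within each pair the higher Ccn2 went with the higher Ccn1.

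The Ccn2 difference was 0.19 ± 0.24 in the 9 libraries (SE, limma adjusted p = 0.788), with a 95% interval of −0.34 to 0.73. It was 0.05 ± 0.23 without LYT005 and 0.36 ± 0.21 without LYT017. In the 7 libraries it was 0.04 ± 0.28 (limma adjusted p = 0.985), with an interval of −0.59 to 0.67. Exact two-sided permutation p-values were 0.524 and 1. As a ratio of control to YAP-deleted level, the 7 libraries gave 0.973, with an interval of 0.629 to 1.51. By range of library codes the difference was 0.36 ± 0.24 among codes 4 to 8 and 0.13 ± 0.30 among codes 13 to 17. The gene overlaps the antisense transcript Gm15270 over 665 of its 2861 exon bases (GENCODE M21). That transcript was not analysed here, and whether the counting used strand was not given in the sources used here.

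**Figure D3:**
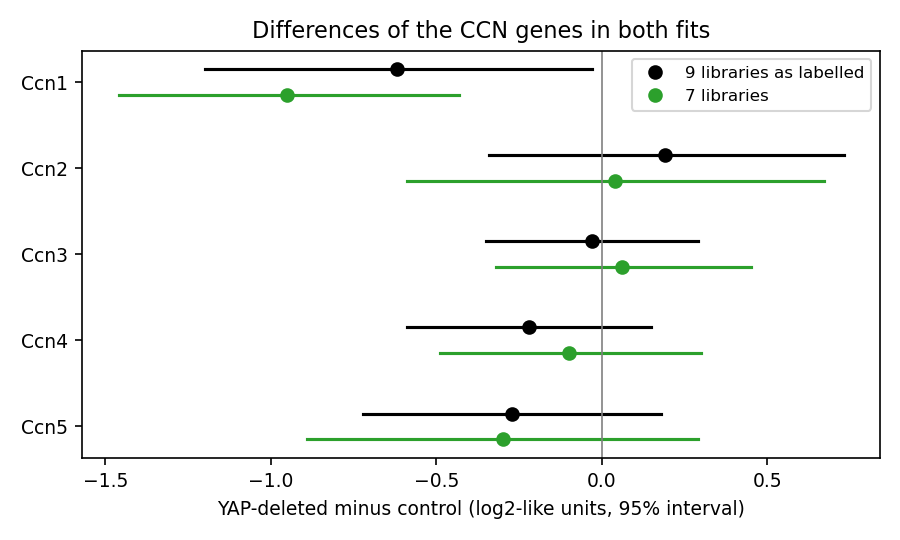
Difference of each CCN gene, YAP-deleted minus control, on the log2-like scale (x axis), with 95% limma intervals for the 9 and the 7 libraries. Only the Ccn1 intervals (−1.2 to −0.03 and −1.46 to −0.43) lie below 0, and these are not adjusted for the number of genes.

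Whether Ccn1 and Ccn2 differed in their response was tested within libraries, a comparison chosen after their values were seen. Ccn1 exceeded Ccn2 by 1.93, 1.85, 1.04 and 0.98 log2 units in control LYT004, LYT005, LYT015 and LYT017. The excess was 0.98, 0.60 and −0.20 in YAP-deleted LYT006, LYT008 and LYT016, so LYT016 was the 1 library with more Ccn2 than Ccn1. LYT014 and LYT013 had 1.29 and 1.04. The group difference was −0.81 with 9 libraries (exact permutation p = 0.0714) and −0.99 with 7 (exact permutation p = 0.0857), both two-sided. An unequal response of both genes was thus not shown at this sample size.

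**Figure D4:**
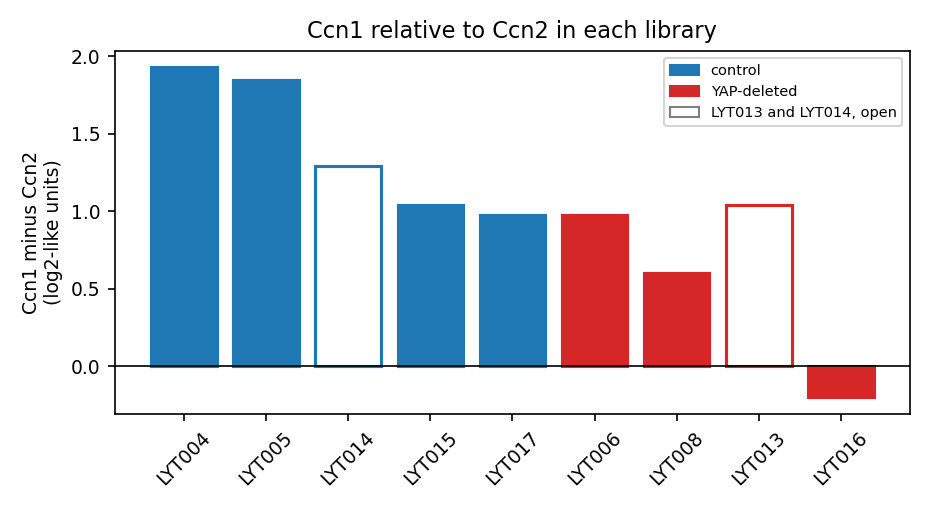
Ccn1 minus Ccn2 in each library (bars from 0, log2-like units), coloured by label, with LYT013 and LYT014 drawn open. Control LYT004 and LYT005 stand highest at 1.93 and 1.85, and LYT016 lies below 0 at −0.20.

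Ccn4, a member induced by Wnt signals in other cells, was even among controls and uneven among YAP-deleted libraries. Controls LYT004, LYT005, LYT014, LYT015 and LYT017 had 506, 602, 549, 538 and 553 normalised counts, a coefficient of variation of 6.31% where counting alone would give 4.36%. YAP-deleted LYT006, LYT008, LYT013 and LYT016 had 506, 697, 345 and 373. The highest and the 2 lowest Ccn4 levels thus came from YAP-deleted libraries, with a coefficient of variation of 33.4%. The low values were those of LYT013 and LYT016, which differ in Yap1.

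The Ccn4 difference was −0.22 ± 0.17 in the 9 libraries (SE, limma adjusted p = 0.683) and −0.10 ± 0.17 in the 7 (limma adjusted p = 0.958). Its 95% intervals were −0.59 to 0.15 and −0.49 to 0.30. In the 9 it was −0.40 ± 0.13 without LYT008 (limma adjusted p = 0.579), −0.10 ± 0.15 without LYT013 and −0.13 ± 0.18 without LYT016. The sign differed between ranges of library codes, at 0.10 ± 0.18 for codes 4 to 8 and −0.54 ± 0.15 for codes 13 to 17 (limma adjusted p = 0.709). Whether these 2 values differ was not tested.

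Ccn5, the member lacking the C-terminal domain, was close to the detection limit and varied most. Recovered counts were 15, 22, 7 and 1 in the controls LYT004, LYT005, LYT015 and LYT017, and YAP-deleted LYT006, LYT008 and LYT016 had 1, 11 and 2. LYT014 had 9 and LYT013 had 7. Over 9 libraries its normalised counts had a coefficient of variation of 98.7%, against 34.6% from counting alone. The 3 highest libraries, LYT005, LYT004 and LYT008, came from both groups.

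The Ccn5 difference was −0.27 ± 0.20 (SE, limma adjusted p = 0.679) in the 9 libraries and −0.30 ± 0.26 (limma adjusted p = 0.902) in the 7. In the 9 it was −0.14 ± 0.19 without LYT005 and −0.41 ± 0.20 without LYT008. This scale understates changes at such counts. On log2 of the normalised count + 1 the values were −1.02 ± 0.76 and −1.12 ± 0.97, with intervals of −2.7 to 0.67 and −3.32 to 1.09.

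The libraries with the highest cell cycle level held the most Ccn5. The mean deposited value of 15 cell cycle genes was 9.92, 10.36 and 9.85 in LYT004, LYT005 and LYT008, which held 16, 27.0 and 14 normalised Ccn5 counts. LYT014 was intermediate at 8.62, with 7.22 Ccn5 counts. The remaining 5 libraries had cell cycle means of 6.99 to 7.28 and 1.15 to 6.60 Ccn5 counts. LYT008 is YAP-deleted and LYT015 and LYT017 are controls, so this order did not follow the labels. Activated myofibroblast markers set the same libraries apart, with summed levels of 729380, 737899 and 507275 in LYT004, LYT005 and LYT008, 300095 in LYT014 and 186830 to 277211 in the other 5. Portal fibroblast markers were also highest in LYT004, LYT005 and LYT008, at 12320, 10532 and 11221. LYT006, with the least Ccn5, was close at 10176. Which of these lists Ccn5 goes with was not tested.

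**Figure D5:**
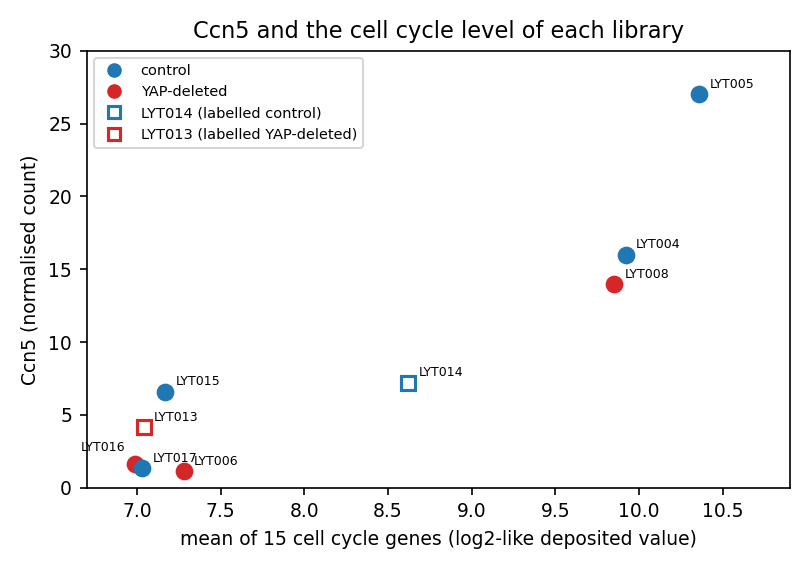
Normalised Ccn5 counts (y axis, linear) against the mean deposited value of 15 cell cycle genes (x axis, log2-like) in each library. LYT004, LYT005 and LYT008 are high on both axes, LYT014 lies between, and 5 libraries sit at the low end.

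Ccn3, described as an inhibitory family member, had 3 to 18 recovered counts per library. Control LYT004, LYT005, LYT014, LYT015 and LYT017 had 9, 10, 17, 4 and 9, and YAP-deleted LYT006, LYT008, LYT013 and LYT016 had 3, 13, 9 and 18. The groups overlapped through most of their range. The coefficient of variation of its normalised counts, 48.3%, compares with 31.3% from counting alone. Its difference was −0.03 ± 0.15 in the 9 libraries and 0.06 ± 0.17 in the 7 (SE, limma adjusted p = 0.957 and 0.971). On log2 of the normalised count + 1 the intervals were −1.3 to 0.99 and −1.24 to 1.56, so neither direction can be told at this depth.

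The members did not move together over libraries beyond the spread. Of 10 pairs, none had an adjusted permutation p under 0.05, for Pearson or Spearman correlation. Ccn1 and Ccn2 had r = 0.09 (exact permutation p = 0.826, adjusted 0.918) and rho = 0.35 (exact permutation p = 0.359, adjusted 0.598) over 9 libraries. Without LYT004 and LYT016, the libraries farthest from the median Ccn1 level, r was 0.55 (exact permutation p = 0.188). The strongest pair was Ccn2 and Ccn5, with r = −0.55 (exact permutation p = 0.122, adjusted 0.740) and rho = −0.52 (exact permutation p = 0.162, adjusted 0.598). Without LYT005 and LYT014, the libraries farthest from the median Ccn2 level, r was −0.22.

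Genes with the most similar pattern over the 9 libraries were sought among 8599 genes at or above the median level, as a description. Closest to Ccn1 were Sytl2 (r = 0.93), Adgrd1 (0.89) and Zscan21 (0.87), and closest to Ccn2 were Endov (0.96), Ctdspl (0.91) and AW011738 (0.90). For Ccn4 they were Pml (0.95), Ttc9c (0.92) and Desi2 (0.89), and for Ccn3 Ttc14 (0.83), Golga2 (0.80) and Lman2l (0.80). Ccn5 was closest to Ezh2 (0.97), Kpna2 (0.96) and Ppm1d (0.95). It had r above 0.9 with 60 genes, where the other members had 0 to 3. Of the 7 listed cell cycle genes at this level, 5 had r above 0.9 with Ccn5, against 0.698% of all genes compared. These values for Ccn5 rest on the separation of LYT004, LYT005 and LYT008 from the other libraries and describe that separation only.

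Of 20 other listed YAP and TAZ targets, 19 were tested and none passed over all genes. In the 7 libraries 12 of 19 tested targets had a negative difference (median −0.10, against −0.01 for all genes), and 51.4% of all genes did. At an unadjusted limma p under 0.05, 4 targets were lower and 1 was higher, where 3.03% of all genes were lower. The mean deposited value of the targets did not overlap, at 10.43 to 10.49 in controls and 10.29 to 10.38 in YAP-deleted libraries. Their summed level did (119660 to 153241 and 117500 to 138764). Ptpn14, a phosphatase that restrains YAP, averaged 1083 ± 31.3 normalised counts in 4 controls and 825 ± 54.6 in 3 YAP-deleted libraries (SD), which is −0.37 ± 0.08 on the log2-like scale. Tgfb2, a TGF-beta ligand, differed by −0.52 ± 0.13, Ankrd1, a cardiac ankyrin repeat protein, by −0.70 ± 0.25 at 21 and 4.38 normalised counts, and Crim1 by 0.43 ± 0.14. Their limma adjusted p-values ran from 0.389 to 0.716. In the 9 libraries 14 of 19 were negative (median −0.13), and the 4 genes stood at −0.47 ± 0.14 (Ptpn14), −0.19 ± 0.21 (Tgfb2), −0.43 ± 0.26 (Ankrd1) and 0.02 ± 0.26 (Crim1). The mean of the targets was then 10.41 to 10.49 in controls and 10.17 to 10.38 in YAP-deleted libraries, lowest in LYT013, whose Yap1 was high. This separation was not particular to the targets. In the 7 libraries the mean of the upstream regulators of CCN genes, a list that holds Yap1, did not overlap either. It was 10.35 to 10.49 in controls and 10.19 to 10.27 in YAP-deleted libraries. How often other lists of this size separate the groups was not tested.

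Among 24 upstream regulators of CCN genes, 13 had a negative difference in the 7 libraries (median −0.07), and 1 was called. That 1 was Yap1, which is no independent result because LYT013 and LYT014 were set aside for its level. Tead1, which encodes a DNA-binding partner of YAP, averaged 5950 ± 504 normalised counts in 4 controls and 4588 ± 665 in 3 YAP-deleted libraries (SD), or −0.38 ± 0.12 on the log2-like scale (limma adjusted p = 0.637). In the 9 libraries 17 of 24 were negative (median −0.17) and none was called, with Tead1 at −0.54 ± 0.19. Of 17 CCN receptor genes, 8 were negative in the 7 libraries (median 0.02) and 12 in the 9 (median −0.10), or 9 with arrayWeights (median 0), with none called. The integrin subunits Itgav and Itga2 differed by −0.17 ± 0.09 and −0.51 ± 0.30 in the 7, and by −0.41 ± 0.20 and −0.66 ± 0.26 in the 9. LYT013, labelled YAP-deleted but with high Yap1, had the lowest summed regulator and receptor levels, at 47727 and 122842 normalised counts. Regulators summed to 66514 to 72785 in the controls of the 7 and 65199 to 68483 in the YAP-deleted libraries. Receptors summed to 166255 to 181856 and 165725 to 189754. The differences in the 9 libraries for both lists thus include this low library.

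Lists that share regulators with Ccn1 and Ccn2 pointed in different directions. Of 19 immediate early genes, 17 had a positive difference in the 7 libraries (median 0.21) and also in the 9 (median 0.26), the opposite sign to Ccn1. With arrayWeights 16 were positive in the 7 and 11 in the 9. Ier2 differed by 0.49 ± 0.15, the zinc finger factor Egr2 by 0.51 ± 0.18 and Klf6 by −0.37 ± 0.14 in the 7, against 0.55 ± 0.18, 0.26 ± 0.21 and −0.29 ± 0.14 in the 9. Of 14 contractile SRF target genes, 14 were negative in the 7 (median −0.40) and 13 in the 9 (median −0.30), against 13 and 14 with arrayWeights. Those with the smallest p in the 7 were Myl9 at −1.47 ± 0.31, Tagln at −1.15 ± 0.28 and Lmod1 at −0.82 ± 0.23. In the 9 libraries the same genes stood at −0.47 ± 0.61, −0.47 ± 0.48 and −0.28 ± 0.36, each smaller in size than its SE. The contractile list summed to 99381 to 127439 normalised counts in the controls of the 7 and 78730 to 97228 in the YAP-deleted libraries. LYT013 had 110828 and LYT014 had 91021. The mean deposited value of the list overlapped in the 7, at 11.09 to 11.71 and 10.60 to 11.22. No gene of either list passed (limma adjusted p of 0.389 or more in the 7). Of the contractile list, Myh11, Cnn1, Actg2 and Lmod1 are also smooth muscle markers here, and Acta2 and Tagln also activated myofibroblast markers. The counts of these lists are thus not independent.

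Of 12 TGF-beta response genes, 7 were negative in the 7 libraries (median −0.10) and 9 in the 9 (median −0.14), with none called. With arrayWeights the median in the 7 was 0.02. Fn1, Lox and Pmepa1 differed by −0.41 ± 0.22, −1.17 ± 0.71 and 0.12 ± 0.09 in the 7, and by −0.47 ± 0.23, −1.30 ± 0.57 and 0.10 ± 0.11 in the 9. Among 11 other matricellular genes, 4 were negative in the 7 (median 0.04) and 7 in the 9 (median −0.07, or 0.04 with arrayWeights). Tnc, the matrix glycoprotein tenascin C, was called in the 7 libraries, at −1.09 ± 0.11 (limma adjusted p = 0.011), and not in the 9, at −0.90 ± 0.16 (limma adjusted p = 0.649). It averaged 7302 ± 544 normalised counts in 4 controls and 3400 ± 395 in 3 YAP-deleted libraries (SD). In the 7 its limma adjusted p was 0.0561, 0.0544, 0.149 and 0.103 without LYT004, LYT017, LYT006 and LYT016 in turn, so the call needs each of these 4 libraries, while the difference stayed between −1.18 and −1.05. Sparcl1 and Thbs4 differed by 0.39 ± 0.24 and 0.26 ± 0.20 in the 7, and by 0.19 ± 0.23 and 0.09 ± 0.21 in the 9. All 15 cell cycle genes were negative in both fits (medians −0.59 and −0.84 in the 7 and the 9), and with arrayWeights 13 were negative in the 7. None was called, with Tyms, Pcna and Rrm2 at −0.59 ± 0.46, −0.29 ± 0.27 and −0.72 ± 0.89 in the 7 and −0.53 ± 0.37, −0.10 ± 0.26 and −0.90 ± 0.70 in the 9. The mean deposited value of the cell cycle list was high in control LYT004 and LYT005 (9.92 and 10.36) and in YAP-deleted LYT008 (9.85). Controls LYT015 and LYT017 (7.17 and 7.03) lay near YAP-deleted LYT006 and LYT016 (7.28 and 6.99). The shared sign of these genes thus rests on a few libraries.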

How the data were processed

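The authors deposited a single gene-by-library table whose values are log2-like after variance stabilisation, as the values themselves show. The submitters' processing notes name kallisto 0.44.0, sleuth and bcl2fastq 2.20, and the builds GRCm38, mm10 and GRCh38 without a role. Which library had poly-A selection and which ribosomal depletion was not given in the sources used here.

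Columns were matched to samples by library code. The column for LYT013 is headed LYT013.1. Inverting the inverse hyperbolic sine form gave whole counts within 0.1 for 100.0% of values above the lowest, 4.96. The implied size factors matched the median-ratio factors of those counts. Genes above 4.96 in at least 4 of 9 libraries (17203) were fitted in limma 3.58.1 (R 4.3.3) on group, with a mean-variance trend, and two-sided p-values were adjusted by Benjamini-Hochberg at 0.05. Exact permutation tests covered single members. The fit was also run on simulated counts with known changes. Their spread between libraries was preset and not taken from these data, so that run gives no power for the CCN members. Lengths and positions came from GENCODE M21 on GRCm38. Counting intervals cover counting error only.

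The members, lists and tests were chosen with earlier results of these data known. Named genes were the members, Yap1, Ankrd1, the 4 YAP and TAZ targets and 3 genes of each other list with the smallest p in the 7 libraries, and the 3 genes most like each member. Of these, 1 gene is not reported here. Gene lists are described by counts, with no set test. Some lists share genes, so their counts are not independent. Col1a1, Timp1 and Lox are in both the TGF-beta and the myofibroblast list, and Tgfb2 and Lats2 among both YAP targets and upstream regulators.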

Additional observations from a re-analysis of the deposited data

How the results depend on the processing

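No CCN member passed under any of the alternatives tried (filters, quantile normalisation, TMM with limma voom, log2 of the normalised count + 1, no trend, arrayWeights, the library code range as a term, single ranges of codes, and each library left out). Ccn1 kept its sign in all of them, from −0.84 to −0.38 with 9 libraries and from −1.10 to −0.70 with 7, at adjusted p-values from 0.424 to 0.836 and 0.121 to 0.999. Ccn5 kept its sign too, from −0.41 to −0.14 with 9 libraries and −0.51 to −0.14 with 7 when a library was left out. Ccn3 and Ccn5 lie below the median level and have no value under that filter. Ccn2 with 9 libraries stayed positive, from 0.01 with arrayWeights to 0.36 without LYT017. Signs turned for values near 0. Ccn3 with 9 libraries was 0.01 after quantile normalisation and 0.02 among codes 13 to 17, and ran from −0.12 to 0.07 with a library left out. With 7 libraries it ran from −0.04 to 0.24. Ccn2 with 7 libraries was −0.01 after quantile normalisation and −0.16 with arrayWeights, and ran from −0.18 to 0.23 with a library left out. Ccn4 with 9 libraries was 0.10 among codes 4 to 8, and with 7 libraries ran from −0.30 to 0.10 with a library left out. The cause was not tested. The number of genes called with 9 libraries was 0, against 1242 at an unadjusted p under 0.05, and 3 among codes 4 to 8. With 7 libraries it was 12, against 7 by TMM with limma voom, 25 with the code range as a term, and 2 to 11 with a library left out (2 without LYT006, 6 without LYT004 or LYT017, 7 without LYT008 or LYT016). Ccn1 minus Ccn2 ranged from −1.10 to −0.54 with 9 libraries and −1.25 to −0.66 with 7 over the settings. Several of these settings hold too few libraries for an exact permutation p under 0.05, so no p is read from them. With the longest transcript, Ccn4 had 102 normalised counts per kilobase in place of 179, and the order of the members was unchanged. Ccn3 and Ccn5 had 22 or fewer recovered counts in every library, which limits their precision, while the spread of Ccn5 between libraries exceeded counting error. No paired analysis was made because the labels give no pairing of libraries between the groups.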
